A study of Mus musculus with 9 samples.

Results

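The 8 genes described here, Spi1, Irf8, Irf4, Irf5, Gfi1, Klf4, Zeb2 and Nr4a1, encode transcription factors that steer myeloid progenitors towards granulocytes or monocytes. They were given by name, and each was read from the Affymetrix mouse array probe sets that carry its symbol alone, with the probe set of highest mean over the 9 arrays standing for the gene. All 8 were on the arrays, among 18194 genes with such a probe set, and had 16 probe sets between them. Of the 8, 6 passed the filter on dim genes that precedes testing and 2, Irf4 and Nr4a1, did not. RNA was hybridised from 3 samples of K/L leukaemic mice, which carry mutations in both Cebpa alleles, 3 of leukaemic mice overexpressing Sox4, and 3 of wild type mice. The sample titles say mice and do not tell whether a sample is 1 mouse or several. All are listed as C57/BL6 mice aged 2 to 4 months, with blood as the tissue. The sorted cells, called FrII, lacked lineage markers and Sca-1, carried c-Kit and were low or positive for Mac1. A CD45.1-negative, CD45.2-positive gate is named for both leukaemias, and for wild type cells only in the shared extraction text. How Sox4 was overexpressed, and whether mice of 1 group carry separate leukaemias, is not given in the sources used here, and the p-values below cover only the spread between the 9 arrays.

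PU.1, the product of Spi1, is required for the myeloid lineages, and its level helps to set the choice between granulocyte and monocyte. IRF8 pairs with PU.1 on composite DNA elements and drives the formation of monocytes and dendritic cells, with KLF4 acting downstream of it in mouse monocytes. GFI1 is a zinc finger repressor that favours neutrophils and silences monocyte genes, so that GFI1 and IRF8 oppose each other in shared progenitors. C/EBPα, the protein altered in K/L mice, is needed to enter the granulocyte and monocyte path.

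Levels are given as log2 intensity, and a change as the difference between 2 group means on that scale ± its standard error in a limma fit of the 9 arrays, with p-values adjusted over 12826 tested genes. The number of arrays limits the precision. Array medians lay between 5.43 and 5.55, and the 40th percentile of an array, below which a value is called dim, between 4.84 and 4.95. Wild type array 3 stood apart, with 400 genes over 2-fold away from its nearest wild type array, against 18 to 48 for each of the other 8 arrays within its own group. The Gapdh control probe sets gave a 3' over 5' signal of 1.93 to 2.00 on K/L arrays, 2.22 to 2.44 on Sox4 arrays and 2.68 to 2.91 on wild type arrays. The actin control probe sets gave 0.87 to 0.91, 0.88 to 0.91 and 0.88 to 0.98 in the same order, so their groups overlapped. The part of these RNA quality measures in the results was not tested. Of the sort gate, Kit averaged 9.22 in K/L, 9.18 in Sox4 and 9.17 in wild type cells. Ptprc, the CD45 gene, was lower in both leukaemias, with a change of -0.44 ± 0.10 in K/L cells (limma, adjusted p = 0.00484) and -0.49 ± 0.10 in Sox4 cells (limma, adjusted p = 0.00252). Itgam, which encodes the CD11b chain of Mac1, averaged 3.83 in K/L, 4.20 in Sox4 and 4.91 in wild type cells and was dim on all 3 arrays of each leukaemia.

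**Figure D1:**
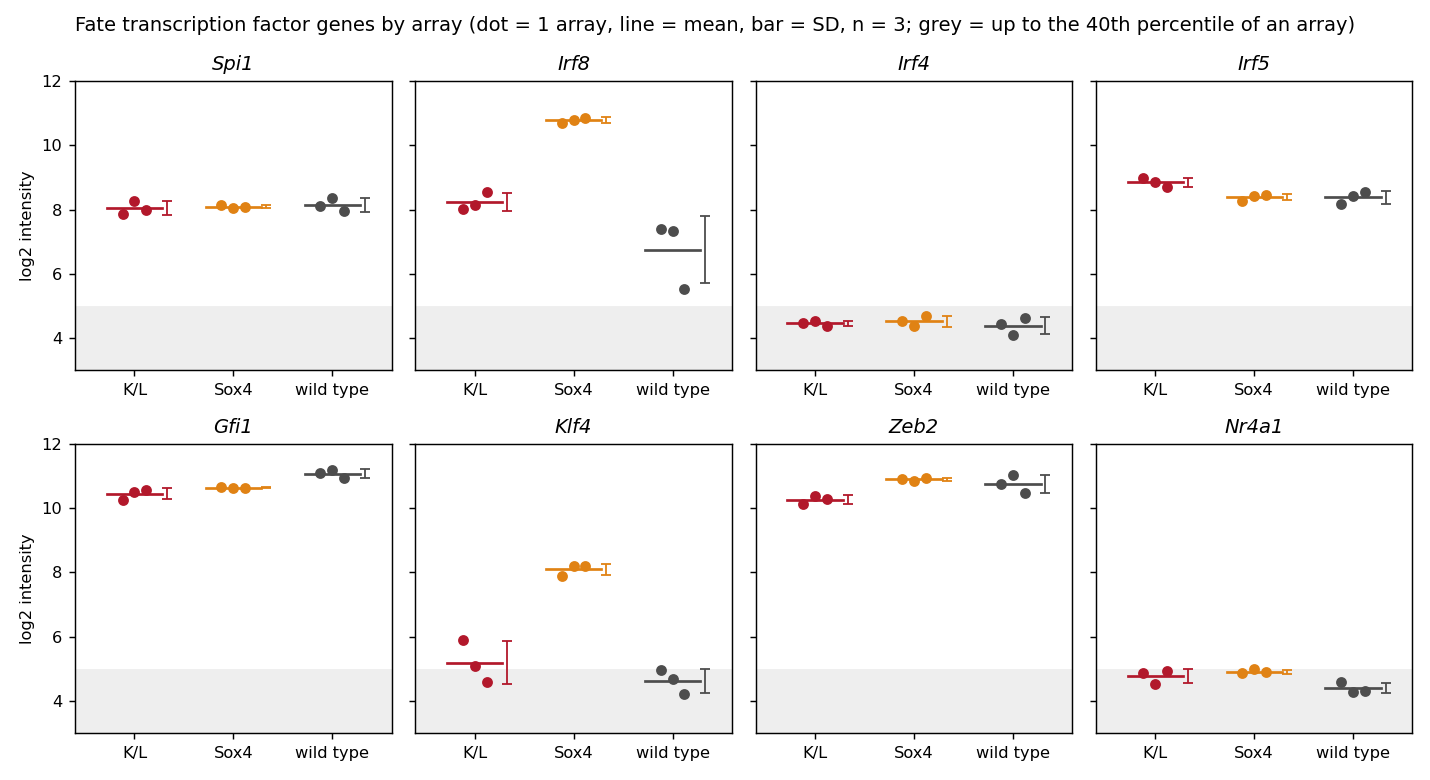
Log2 intensity (vertical axis) of the 8 transcription factor genes on the 3 K/L, 3 Sox4 and 3 wild type arrays. Each dot is 1 array, the line is the group mean, the bar is the SD, and the grey band covers values up to the 40th percentile of an array. Irf8 and Klf4 stand high on the Sox4 arrays, the 3 groups overlap for Spi1, and all Irf4 values lie in the grey band.

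Irf8 and Klf4, the monocyte-directing pair, were 16.4-fold and 11.2-fold higher in Sox4 leukaemic cells than in wild type cells, and Irf8 was also 2.8-fold higher in K/L cells. The fold of Klf4 is set against wild type values that were dim on all 3 arrays, and Klf4 entered the test only because of its Sox4 values, so its size is uncertain. Gfi1 was lower in both leukaemias, by 1.54-fold in K/L and 1.36-fold in Sox4 cells. Irf5 was higher and Zeb2 lower in K/L cells than in either other group. Spi1 passed the test in none of the 3 comparisons. Of the 6 tested genes, 4 passed an adjusted p of 0.05 for K/L versus wild type, where 50.6 percent of all tested genes did. Of these, 2 were higher and 2 lower, with 29 percent and 21.6 percent of all tested genes. For Sox4 versus wild type 3 passed, against a background of 47.8 percent, with 2 higher and 1 lower where the background was 26.7 percent and 21.1 percent. For K/L versus Sox4 4 passed, against 28.9 percent, with 1 higher and 3 lower where the background was 14.9 percent and 14 percent. Over all tested genes the split of calls is sensitive to scaling. For K/L versus Sox4, 51.5 percent of calls were higher in K/L cells as deposited and 63.6 percent after each array was centred on its median. For K/L versus wild type these shares were 57.3 percent and 66.1 percent. Among the 6 genes, 4 still passed for K/L versus Sox4 after centring, each in the same direction. In the first 2 comparisons the share of the 6 genes is near the background, so what follows concerns single genes and the size of their changes. Without a test, the arrays of the 2 groups did not overlap for 4, 4 and 5 of the 8 genes in K/L versus wild type, Sox4 versus wild type and K/L versus Sox4, against 58.1 percent, 56.2 percent and 51.1 percent of tested genes. That background leaves out genes such as the untested Irf4 and Nr4a1. Irf4 overlapped in each comparison, and Nr4a1 in all but Sox4 versus wild type. Both leukaemias are set against the same 3 wild type arrays. The shares of all tested genes that passed as higher or lower are also the background for the counts of listed genes below.

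**Figure D2:**
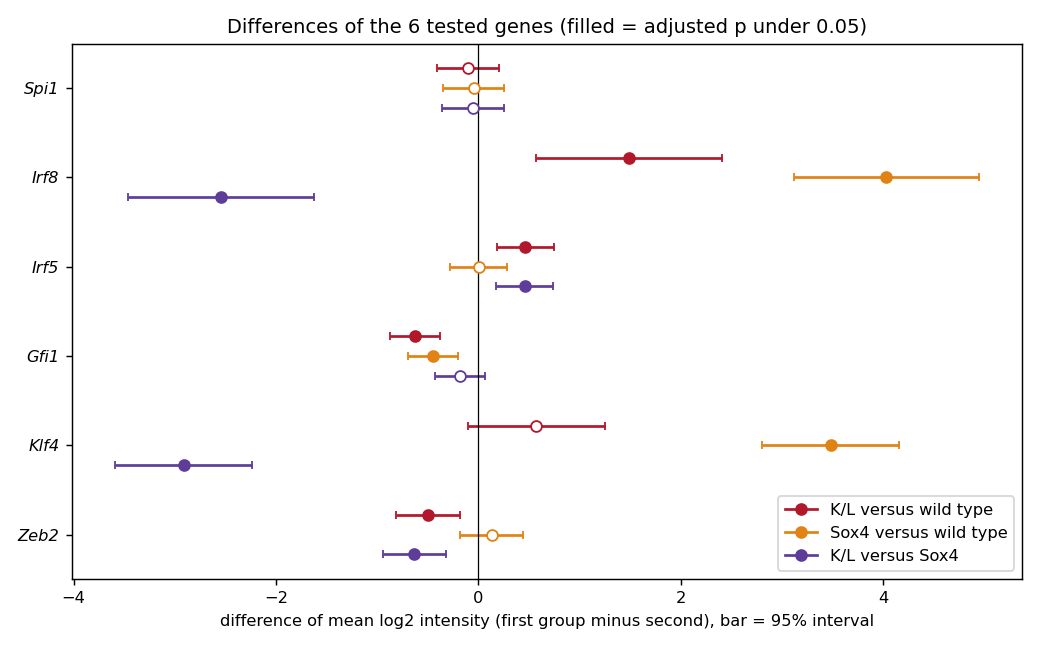
Difference of mean log2 intensity (horizontal axis) for the 6 tested genes in 3 comparisons, with the 95% interval of the limma fit. Filled dots passed an adjusted p of 0.05. Irf8 and Klf4 lie at 4.03 and 3.48 for Sox4 versus wild type, while the intervals of Spi1 include 0 in each comparison.

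Since Irf8 and Klf4 were both far higher in Sox4 cells, the 250 bases before an annotated start of each are shown, from RefSeq on GRCm38.p6, 5′ to 3′ in the direction of the gene. The Irf8 window is chr8:120736108-120736357 on the plus strand, and the Klf4 window is chr4:55532476-55532725 on the minus strand. Capitals mark every match, on either strand, to the 9 motifs searched.
Irf8: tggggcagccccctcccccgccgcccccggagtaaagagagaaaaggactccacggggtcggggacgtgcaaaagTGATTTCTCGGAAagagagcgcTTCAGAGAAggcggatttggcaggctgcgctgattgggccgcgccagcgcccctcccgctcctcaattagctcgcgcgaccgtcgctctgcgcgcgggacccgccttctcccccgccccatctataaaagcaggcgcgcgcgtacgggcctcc
Klf4: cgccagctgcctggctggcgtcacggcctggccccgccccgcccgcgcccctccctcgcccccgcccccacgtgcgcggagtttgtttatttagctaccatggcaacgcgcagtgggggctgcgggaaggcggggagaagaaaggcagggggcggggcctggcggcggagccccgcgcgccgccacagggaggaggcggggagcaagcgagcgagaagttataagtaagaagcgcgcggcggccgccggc
The motifs were GAGGAAG (ETS factors, among them PU.1), GGAA or GAAA followed after any 2 bases by GAAA (the joint element of ETS and IRF factors, and the interferon response element), TTCNNNGAA (STAT), TTGCNNAA (C/EBP), ACAAAG (SOX), AAATCA (GFI1), GGGNGTGG (KLF) and TGANTCA (AP-1). The Irf8 window held TTCNNNGAA at 2 places, 171 to 163 and 153 to 145 bases before the start. It also held AAATCA on the opposite strand, 175 to 170 bases before the start, overlapping the first of these. Among 32851 such windows of mouse genes, 7.02 percent held TTCNNNGAA and 12.4 percent held AAATCA. The Klf4 window held none of the 9 motifs, and its share of G and C was 74 percent against 67.2 percent in the Irf8 window. ACAAAG was in neither window and in 16.5 percent of all windows. A match is only a match of letters, and windows of 7 of the 8 genes were in the table used.

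Irf8, the gene of the monocyte and dendritic cell factor, measured 8.02, 8.14 and 8.54 on the K/L arrays, 10.69, 10.80 and 10.86 on the Sox4 arrays and 7.38, 7.33 and 5.54 on the wild type arrays (1416714_at). The 3 groups did not overlap, with Sox4 highest, K/L between and wild type lowest, and wild type array 3 lay far below the other wild type arrays. Group means were 8.24 ± 0.27 in K/L, 10.78 ± 0.08 in Sox4 and 6.75 ± 1.05 in wild type cells (SD, n = 3 each). Sox4 cells differed from wild type by 4.03 ± 0.41 in limma (adjusted p = 3.33e-05), a larger size of change than in 99.5 percent of tested genes. K/L cells differed from wild type by 1.49 ± 0.41 (limma, adjusted p = 0.0126) and from Sox4 cells by -2.55 ± 0.41 (limma, adjusted p = 0.00118). Without wild type array 3 the wild type mean was 7.35. The K/L change was then 0.88 ± 0.15 (limma, adjusted p = 0.00106) and the Sox4 change 3.43 ± 0.15 (limma, adjusted p = 5.1e-07), so 1 array moved the K/L value by more than 1.5 times while the call stood. The other Irf8 probe set, 1448452_at, measured 7.08, 7.24 and 7.62 on the K/L arrays, 9.61, 9.49 and 9.63 on the Sox4 arrays and 6.47, 6.54 and 4.94 on the wild type arrays, with the same order of groups and the same low array.

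The genes whose pattern over the 9 arrays lay closest to that of Irf8 were Mef2c, a MADS-box factor gene of myeloid and lymphoid progenitors, and Ctsh, the gene of the lysosomal protease cathepsin H. Closeness was the root mean square distance between log2 profiles centred on each gene's mean, at 0.26 for Mef2c and 0.38 for Ctsh among 12035 genes. Mef2c averaged 6.54 in K/L, 9.20 in Sox4 and 5.48 in wild type cells, and Ctsh 7.39, 9.31 and 6.13. Both were picked for closeness to Irf8 on these arrays, so sharing its order of groups follows from the choice. The closeness includes the low wild type array 3, with wild type values of 6.34, 5.97 and 4.11 for Mef2c and 6.91, 6.56 and 4.91 for Ctsh.

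Monocyte markers were measured beside Irf8. Of 9 listed, 8 were on the arrays and tested, and 5 rose and 0 fell in K/L cells (1 fell without wild type array 3), while 8 rose in Sox4 cells. The 3 that did not pass in K/L cells were Csf1r at -0.10 ± 0.10, Cx3cr1 at -0.49 ± 0.20 and Ccr2, and Cd68 was higher in K/L than in Sox4 cells, by 0.77 ± 0.20 (limma, adjusted p = 0.0182), so single markers did not all keep the order of groups seen for Irf8. The median change of the 8 was 0.62 for K/L and 1.95 for Sox4, against 0.06 and 0.03 over all tested genes. Ccr2, the chemokine receptor gene that takes monocytes out of marrow, changed by 0.34 ± 0.16 in K/L cells (limma, adjusted p = 0.114) and 2.46 ± 0.16 in Sox4 cells (limma, adjusted p = 2.13e-06). The linear intensities of the 8 markers summed to 4511 to 5625 on K/L arrays, 8454 to 9176 on Sox4 arrays and 2368 to 2667 on wild type arrays, and 1 of them was dim on every K/L array. The part of monocyte content in the Irf8 values was not tested, and in bulk samples fewer cells of a type and less RNA per cell cannot be told apart.

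IRF8 also serves dendritic cells. Of 7 conventional dendritic cell markers 6 were on the arrays, and they summed to 181 to 258 on K/L arrays, 625 to 643 on Sox4 arrays and 135 to 156 on wild type arrays. Of 4 tested, 2 rose in K/L cells (1 without wild type array 3) and 3 in Sox4 cells, while the lineage-defining Zbtb46 averaged 4.90 in K/L, 4.81 in Sox4 and 4.79 in wild type cells and Xcr1 and Cd209a were too dim to test. Flt3, a receptor gene also used by early progenitors, changed by 3.24 ± 0.20 in Sox4 cells (limma, adjusted p = 1.09e-06). Plasmacytoid dendritic cell markers summed to 311 to 377 on K/L arrays, 854 to 1014 on Sox4 arrays and 535 to 607 on wild type arrays, and Siglech, a defining one, averaged 5.76, 5.65 and 5.82. Tcf4 had by far the widest spread of group means in that list (4.55 in K/L, 9.37 in Sox4 and 8.22 in wild type cells). Cox6a2 was instead highest in K/L cells, at 6.96 in K/L, 6.57 in Sox4 and 6.40 in wild type cells. B cell markers, which bear on Irf8 and Irf4, summed to 701 to 746, 539 to 682 and 362 to 451 in the same order, with Pax5 at 4.79, 4.84 and 5.07. Of 4 tested, 3 rose and 0 fell in K/L cells (1 fell without wild type array 3). In Sox4 cells 1 rose (Cd79b) and 1 fell (Cd79a). T and NK cell markers summed to 180 to 187, 233 to 279 and 164 to 173, in the same order. Gzmb, dim on all K/L and wild type arrays, had by far the widest spread of group means in that list (4.03, 6.36 and 3.84). Of 4 tested, Gzmb alone rose in Sox4 cells and 0 rose in K/L cells, while Cd8a averaged 5.30, 5.34 and 5.33. Mast cell and basophil markers summed to 5866 to 6462, 2101 to 2785 and 1190 to 1788, in the same order. Within the mast cell and basophil list Cpa3 averaged 11.93 in K/L, 9.38 in Sox4 and 8.46 in wild type cells, with wild type arrays at 9.21, 9.36 and 6.83, array 3 being the low one. Ms4a2 went against the sum in K/L cells only, where it changed by -1.26 ± 0.20 (limma, adjusted p = 0.000576). In Sox4 cells it rose, as the sum did, by 2.34 ± 0.20 (limma, adjusted p = 1.1e-05).

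Among genes known to be activated by IRF8, 6 of 8 were tested. In K/L cells 2 rose (Cst3 and Ctss) and 1 fell (Cybb), with a median of 0.37. In Sox4 cells 4 rose (Cst3, Klf4, Cybb and Ctss) and 0 fell, with a median of 1.33. Klf4 and Ctss, dim on all wild type arrays, entered the test only through leukaemic values. Neither could have counted as a fall in Sox4 cells, nor Ctss in K/L cells, so these counts and medians lean towards rises. Ctss, the gene of the antigen-processing protease cathepsin S, measured 10.17, 9.83 and 10.20 on the K/L arrays, 10.23, 10.23 and 10.08 on the Sox4 arrays and 4.48, 4.46 and 3.48 on the wild type arrays. All its wild type values were dim, so its change from wild type is measured against little signal. Its levels overlapped between the leukaemias, where Irf8 did not, and K/L minus Sox4 was -0.11 ± 0.24 (limma, adjusted p = 0.782). Cst3, the cystatin C gene, rose by 0.76 ± 0.09 in K/L cells (limma, adjusted p = 7.76e-05) and 0.46 ± 0.09 in Sox4 cells (limma, adjusted p = 0.00189). Cybb, the gene of the catalytic subunit of the phagocyte oxidase and a target of PU.1 and IRF8 together, measured 6.03, 5.24 and 6.09 on the K/L arrays, 10.03, 9.59 and 9.87 on the Sox4 arrays and 8.19, 8.21 and 6.46 on the wild type arrays. It moved in opposite directions, by -1.83 ± 0.43 in K/L cells (limma, adjusted p = 0.0054) and 2.21 ± 0.43 in Sox4 cells (limma, adjusted p = 0.00194), and wild type array 3 was again the lowest of its group.

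Klf4, whose product promotes monocyte differentiation, measured 5.90, 5.07 and 4.57 on the K/L arrays, 7.90, 8.19 and 8.19 on the Sox4 arrays and 4.95, 4.69 and 4.20 on the wild type arrays (1417395_at). Every Sox4 value lay above every other value, while K/L and wild type overlapped. All 3 wild type values were below the 40th percentile of their arrays, and 5 arrays (3 Sox4 and 2 K/L) were above it. The size of a change from wild type therefore rests on little signal, and with values below 5 set to 5 the Sox4 change was 3.09. Sox4 cells differed from wild type by 3.48 ± 0.30 (limma, adjusted p = 1.18e-05), and K/L cells lay below Sox4 cells with a difference of -2.91 ± 0.30 (limma, adjusted p = 6.67e-05). K/L minus wild type was 0.57 ± 0.30 and did not pass in limma (adjusted p = 0.146, 95% interval -0.11 to 1.25). It depended on single arrays, at 0.21 ± 0.23 without K/L array 1 (limma, adjusted p = 0.502), 0.87 ± 0.27 without K/L array 3 (limma, adjusted p = 0.0294) and 0.36 ± 0.32 without wild type array 3 (limma, adjusted p = 0.377), and passed only in the second of these. With values below 5 set to 5 it was 0.32. The other Klf4 probe set, 1417394_at, measured 5.54, 4.49 and 3.88 on the K/L arrays, 8.42, 8.37 and 8.29 on the Sox4 arrays and 3.68, 4.07 and 3.77 on the wild type arrays. In both probe sets array 1 was the highest of the K/L arrays.

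Closest to Klf4 in pattern were Hspa1a, an inducible heat shock gene, at a distance of 0.30, and Mfsd2b, the gene of a sphingosine-1-phosphate exporter of red cells and platelets, at 0.35. Hspa1a averaged 3.77 in K/L, 6.68 in Sox4 and 3.37 in wild type cells, and Mfsd2b 4.49, 6.95 and 3.75, both dim on all K/L and all wild type arrays. Egr1, an immediate-early gene whose product favours monocytes and which cell handling can induce, measured 8.79, 7.03 and 5.60 on the K/L arrays, 8.03, 8.59 and 8.52 on the Sox4 arrays and 4.44, 5.20 and 3.94 on the wild type arrays. Its K/L values followed the same order of arrays as those of Klf4, with array 1 highest. The part of immediate-early and heat shock signal in the Klf4 values was not tested. Klf2, a relative of Klf4 expressed in quiescent lymphocytes and monocytes, averaged 6.25 ± 0.55 in K/L, 8.14 ± 0.13 in Sox4 and 5.65 ± 0.24 in wild type cells. Its change was 0.61 ± 0.24 in K/L cells (limma, adjusted p = 0.0594) and 2.50 ± 0.24 in Sox4 cells (limma, adjusted p = 2.4e-05), and the second passed.

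**Figure D3:**
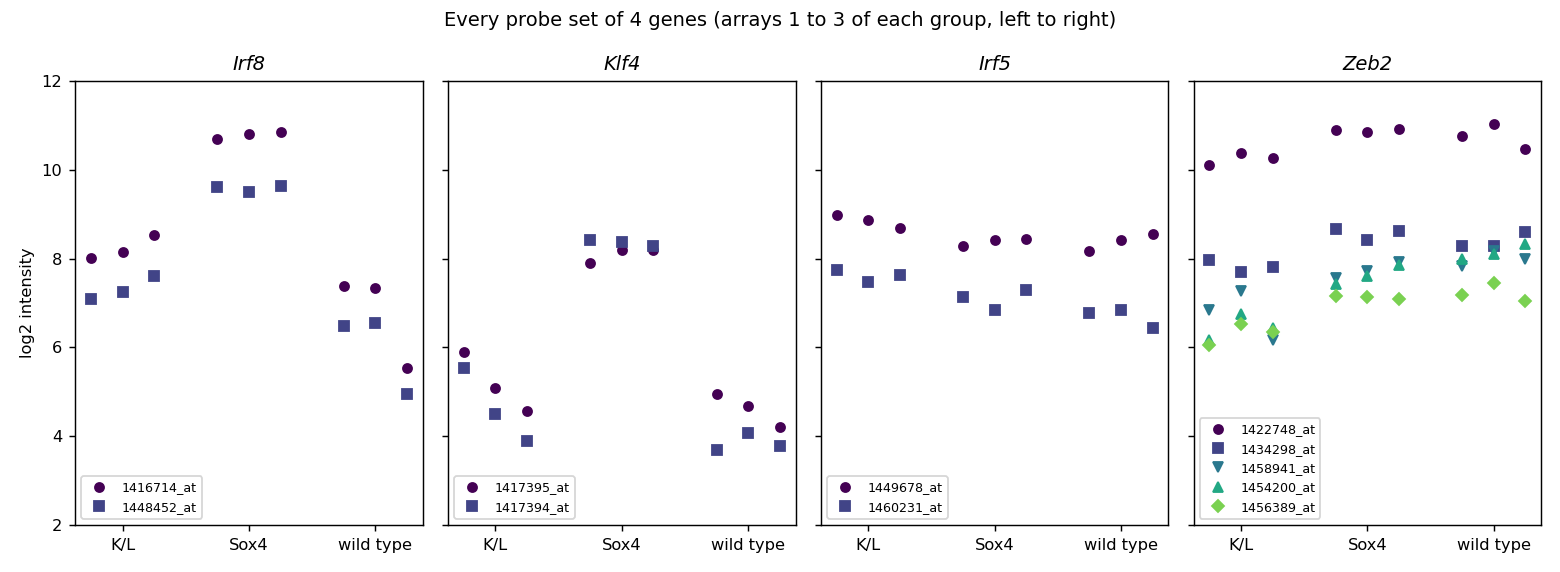
Log2 intensity (vertical axis) of every probe set of Irf8, Klf4, Irf5 and Zeb2 on the 9 arrays, with arrays 1 to 3 of each group placed left to right. Each symbol is 1 probe set on 1 array. Both Irf8 probe sets are low on wild type array 3, both Klf4 probe sets are highest of the K/L arrays on array 1, and all 5 Zeb2 probe sets have a lower mean in K/L cells than in Sox4 or wild type cells.

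Spi1, the PU.1 gene, had 1 probe set, 1418747_at, which measured 7.86, 8.28 and 7.98 on the K/L arrays, 8.13, 8.06 and 8.09 on the Sox4 arrays and 8.12, 8.35 and 7.95 on the wild type arrays. All 3 groups overlapped. K/L minus wild type was -0.10 ± 0.14 (limma, adjusted p = 0.57, 95% interval -0.41 to 0.20) and Sox4 minus wild type -0.05 ± 0.14 (limma, adjusted p = 0.801, 95% interval -0.35 to 0.26). K/L minus Sox4 was -0.05 ± 0.14 (limma, adjusted p = 0.817, 95% interval -0.36 to 0.25).

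Genes known to be activated by PU.1 moved in both directions. Of 15 listed, 13 were tested, and 3 rose and 6 fell in K/L cells (median -0.38), while 5 rose and 3 fell in Sox4 cells (median 0.19). Between the leukaemias 3 were higher and 6 lower in K/L cells (median -0.35). Csf2ra, the gene of the GM-CSF receptor alpha chain, averaged 9.70 ± 0.20 in K/L, 9.15 ± 0.07 in Sox4 and 6.74 ± 0.32 in wild type cells. It rose by 2.97 ± 0.16 in K/L cells (limma, adjusted p = 4.87e-07) and 2.42 ± 0.16 in Sox4 cells (limma, adjusted p = 2.27e-06). Tlr4, the lipopolysaccharide receptor gene, averaged 5.22 ± 0.24 in K/L, 7.92 ± 0.14 in Sox4 and 8.17 ± 0.16 in wild type cells. Its change was -2.94 ± 0.14 in K/L cells (limma, adjusted p = 2.24e-07) and -0.24 ± 0.14 in Sox4 cells (limma, adjusted p = 0.195). Ncf4, the gene of a cytosolic oxidase subunit, rose by 1.13 ± 0.17 in K/L and 1.48 ± 0.17 in Sox4 cells, opposite in K/L cells to Cybb.

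Irf5, whose product activates inflammatory cytokine genes in macrophages, measured 8.97, 8.87 and 8.69 on the K/L arrays, 8.28, 8.43 and 8.45 on the Sox4 arrays and 8.16, 8.42 and 8.56 on the wild type arrays (1449678_at). All K/L values lay above the rest, while Sox4 and wild type overlapped. K/L cells were higher than wild type cells by 0.46 ± 0.13 (limma, adjusted p = 0.0117) and higher than Sox4 cells by 0.46 ± 0.13 (limma, adjusted p = 0.0212). Sox4 minus wild type was 0.00 ± 0.13 (limma, adjusted p = 0.982, 95% interval -0.28 to 0.29). The K/L versus Sox4 call was lost without Sox4 array 1, K/L array 1 or K/L array 2 (limma, adjusted p = 0.0796, 0.0831 and 0.0616). The other probe set, 1460231_at, measured 7.74, 7.47 and 7.62 on the K/L arrays, 7.13, 6.85 and 7.29 on the Sox4 arrays and 6.77, 6.85 and 6.44 on the wild type arrays, and its K/L change from wild type was 0.93 ± 0.15 (limma over all probe sets, adjusted p = 0.00252). Its Sox4 change was 0.40 ± 0.15 (limma over all probe sets, adjusted p = 0.0783).

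Of 6 inflammatory genes known to be activated by IRF5, 3 were bright enough to test, and 0 rose and 1 fell in each leukaemia. Il12a, the gene of the interleukin-12 p35 subunit, changed by -1.42 ± 0.11 in K/L cells (limma, adjusted p = 3.99e-06) and -1.93 ± 0.11 in Sox4 cells (limma, adjusted p = 5.67e-07). Tnf differed from wild type by -0.25 ± 0.25 in K/L and -0.25 ± 0.25 in Sox4 cells and Il12b by 0.17 ± 0.18 and 0.10 ± 0.18, none of which passed.

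Irf4, whose product acts with PU.1 in B cells, dendritic cells and macrophages, was dim on all 9 arrays and was not tested. It measured 4.46, 4.54 and 4.37 on the K/L arrays, 4.53, 4.36 and 4.70 on the Sox4 arrays and 4.45, 4.10 and 4.62 on the wild type arrays (1421173_at), and the groups overlapped. Its other probe set lay between 3.48 and 3.90. With no filter on dim genes the changes were 0.07 ± 0.14 in K/L cells (limma, adjusted p = 0.775) and 0.14 ± 0.14 in Sox4 cells (limma, adjusted p = 0.526).

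Nr4a1, the gene of an orphan nuclear receptor that patrolling monocytes need in mice, was above the 40th percentile on 2 arrays and was not tested. It measured 4.85, 4.51 and 4.92 on the K/L arrays, 4.85, 4.98 and 4.89 on the Sox4 arrays and 4.59, 4.29 and 4.31 on the wild type arrays (1416505_at). All Sox4 values lay above all wild type values, and K/L values overlapped both groups. With no filter on dim genes the change was 0.36 ± 0.13 in K/L cells (limma, adjusted p = 0.0589) and 0.51 ± 0.13 in Sox4 cells (limma, adjusted p = 0.0174), at levels near the dim range. Its relative Nr4a2 measured 7.35, 7.44 and 7.19 on the K/L arrays, 7.54, 7.65 and 7.47 on the Sox4 arrays and 8.48, 8.88 and 8.03 on the wild type arrays. Nr4a2 changed by -1.14 ± 0.19 in K/L cells (limma, adjusted p = 0.000672) and -0.91 ± 0.19 in Sox4 cells (limma, adjusted p = 0.00276).

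Gfi1, the gene of the granulocyte-favouring repressor, measured 10.26, 10.50 and 10.57 on the K/L arrays, 10.64, 10.61 and 10.62 on the Sox4 arrays and 11.08, 11.20 and 10.94 on the wild type arrays (1417679_at, its only probe set). Both leukaemias lay below all wild type values, and all K/L values lay below all Sox4 values. The change was -0.63 ± 0.11 in K/L cells (limma, adjusted p = 0.00103) and -0.45 ± 0.11 in Sox4 cells (limma, adjusted p = 0.00764). K/L minus Sox4 was -0.18 ± 0.11 and did not pass in limma (adjusted p = 0.261, 95% interval -0.43 to 0.06). Its paralogue Gfi1b, which serves red cell and platelet formation, measured 6.89, 6.92 and 7.25 on the K/L arrays, 6.69, 7.22 and 7.19 on the Sox4 arrays and 5.23, 4.97 and 4.83 on the wild type arrays. Gfi1b rose by 2.01 ± 0.17 in K/L cells (limma, adjusted p = 9.54e-06) and 2.02 ± 0.17 in Sox4 cells (limma, adjusted p = 9.91e-06), opposite to Gfi1. Megakaryocyte markers summed to 219 to 226 on K/L arrays, 1327 to 2121 on Sox4 arrays and 279 to 335 on wild type arrays, and erythroid markers to 171 to 183, 334 to 343 and 155 to 220. In the megakaryocyte list Pf4 alone averaged 3.64 in K/L, 10.24 in Sox4 and 3.56 in wild type cells. The part of such cells in the Gfi1b values was not tested.

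Genes known to be repressed by GFI1 were mixed. Of 11 listed, 10 were tested (Irf8 among them), and 4 rose and 2 fell in K/L cells (median 0.09), while 5 rose and 2 fell in Sox4 cells (median 0.88). Over all tested genes 29 percent rose and 21.6 percent fell in K/L cells, and 26.7 percent and 21.1 percent in Sox4 cells. Among those that rose in Sox4 cells were Meis1, by 3.47 from dim wild type values (limma, adjusted p = 5.2e-08), and Hoxa9, by 1.71 (limma, adjusted p = 1.24e-06). Meis1 was dim on all K/L and wild type arrays, so it was tested through its Sox4 values alone. The 2 that fell in each leukaemia were Id1 and Id2, genes of inhibitors of basic helix-loop-helix factors. Id2 averaged 5.96 ± 0.55 in K/L, 5.04 ± 0.12 in Sox4 and 6.98 ± 0.08 in wild type cells, a change of -1.02 ± 0.22 in K/L cells (limma, adjusted p = 0.00386) and -1.94 ± 0.22 in Sox4 cells (limma, adjusted p = 7.63e-05). Egr2, the gene of a macrophage factor that opposes the neutrophil programme, measured 6.76, 6.71 and 6.87 on the K/L arrays, 4.54, 4.44 and 4.08 on the Sox4 arrays and 4.79, 4.69 and 4.43 on the wild type arrays. All its Sox4 and wild type values were dim, so it was tested through its K/L values alone and the sizes that follow are measured against little signal. It was higher in K/L than in wild type cells by 2.14 ± 0.14 (limma, adjusted p = 1.67e-06) and higher in K/L than in Sox4 cells by 2.42 ± 0.14 (limma, adjusted p = 1.05e-06).

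Genes of neutrophil maturation, the programme that GFI1 favours, differed between the leukaemias. Of 9 listed, 7 were tested, and 0 rose and 3 fell in K/L cells (median -0.91), while 6 rose and 0 fell in Sox4 cells (median 1.19). In K/L minus Sox4 0 were higher and 6 lower (median -2.41). Without wild type array 3, 0 rose and 4 fell in K/L cells, while 5 rose and 0 fell in Sox4 cells. Camp, the gene of the antimicrobial peptide cathelicidin, averaged 5.33 ± 0.33 in K/L, 7.92 ± 0.07 in Sox4 and 6.73 ± 1.00 in wild type cells. Its K/L minus Sox4 difference was -2.59 ± 0.40 (limma, adjusted p = 0.000872). On the wild type arrays Camp measured 7.19, 7.41 and 5.58, array 3 being the low one. Ltf, the lactoferrin gene, averaged 4.96 ± 0.19 in K/L, 7.37 ± 0.32 in Sox4 and 5.04 ± 0.16 in wild type cells, with a Sox4 change of 2.33 ± 0.17 (limma, adjusted p = 4.17e-06). Monocyte markers and neutrophil maturation genes were both higher in Sox4 than in wild type cells, beside higher Irf8 and Klf4 and lower Gfi1.

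**Figure D4:**
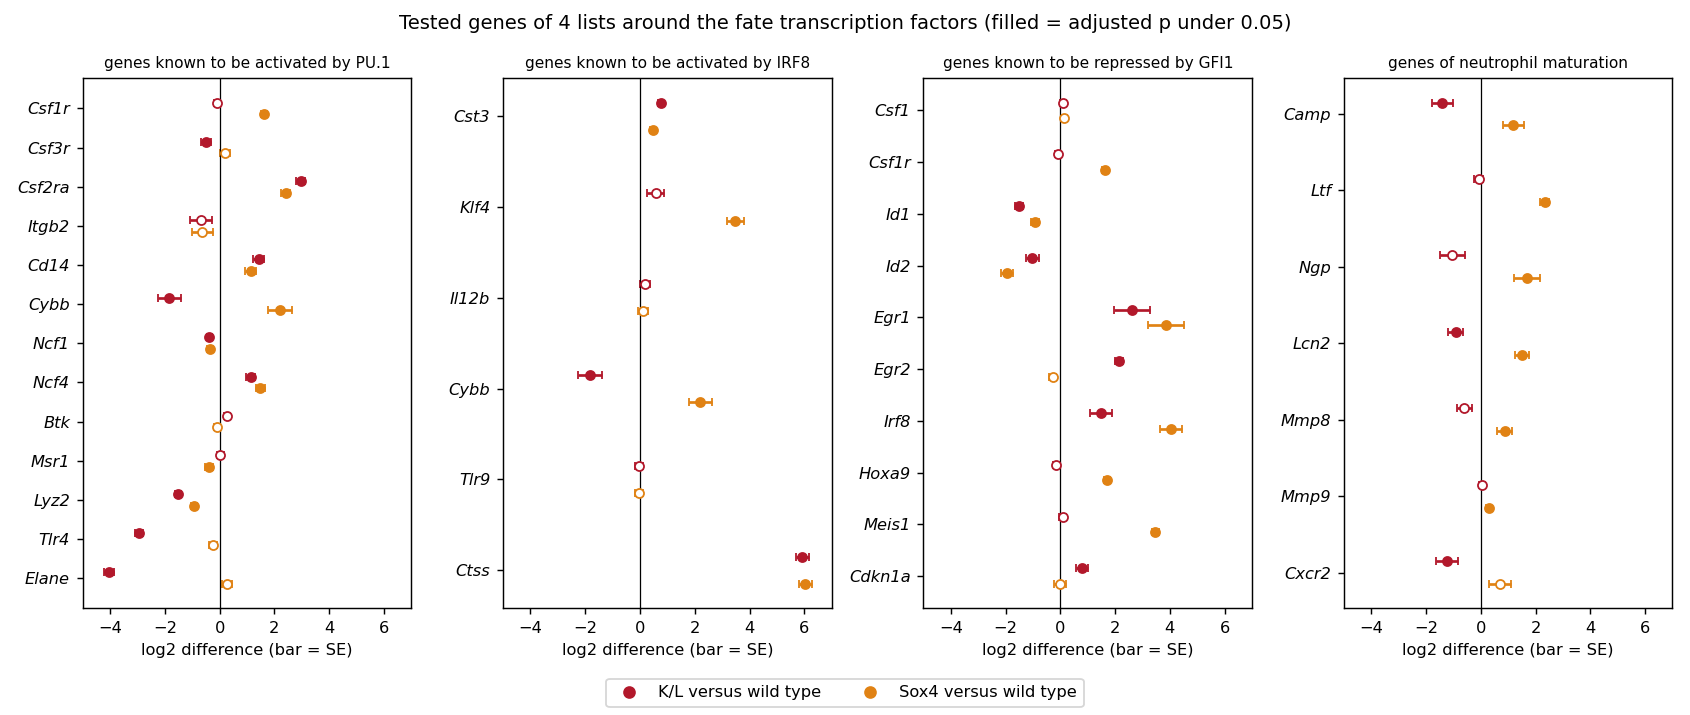
Log2 difference from wild type (horizontal axis, bar = SE) of the tested genes known to be activated by PU.1 or IRF8, repressed by GFI1, or part of neutrophil maturation, in K/L and in Sox4 cells. Filled dots passed an adjusted p of 0.05. Ctss lies near 6 in both leukaemias, against wild type values that are all dim, Cybb on opposite sides of 0, and the neutrophil genes lie to the right of 0 in Sox4 cells.

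Zeb2, the gene of a zinc finger repressor that acts in monocytes and plasmacytoid dendritic cells, measured 10.12, 10.38 and 10.28 on the K/L arrays, 10.89, 10.85 and 10.93 on the Sox4 arrays and 10.76, 11.04 and 10.48 on the wild type arrays (1422748_at). All K/L values lay below the rest, and Sox4 and wild type overlapped. K/L cells differed from wild type by -0.50 ± 0.14 (limma, adjusted p = 0.0137) and from Sox4 cells by -0.63 ± 0.14 (limma, adjusted p = 0.00749). Sox4 minus wild type was 0.13 ± 0.14 (limma, adjusted p = 0.47, 95% interval -0.18 to 0.45). Without K/L array 1 the K/L versus wild type call was lost (limma, adjusted p = 0.0545). In a limma fit of all 34958 probe sets with 1 symbol, each of the 5 Zeb2 probe sets passed as lower in K/L than in wild type cells, with differences from -1.69 to -0.50, and as lower in K/L than in Sox4 cells, from -1.19 to -0.63. The largest of the K/L changes from wild type was -1.69 ± 0.17 at 1454200_at (limma over all probe sets, adjusted p = 0.000318). With the mean of the 5 probe sets the K/L change was -0.98. For Sox4 minus wild type the fit of all probe sets gave differences from -0.50 to 0.19. Only 2 of the 5 were above 0, 1422748_at among them, and 0 passed.

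Tcf4, the gene of an E protein that works beside ZEB2 in plasmacytoid dendritic cells, measured 4.35, 4.42 and 4.88 on the K/L arrays, 9.52, 9.45 and 9.14 on the Sox4 arrays and 8.06, 8.24 and 8.38 on the wild type arrays. Like Zeb2 it was lower in K/L than in wild type cells, with a change of -3.67 ± 0.16 (limma, adjusted p = 1.26e-07), and it rose in Sox4 cells, by 1.15 ± 0.16 (limma, adjusted p = 0.000296). Its K/L values lay in or near the dim range, so the size of the K/L change is uncertain. Zeb1, the paralogue of Zeb2, changed by -0.75 ± 0.15 in K/L cells (limma, adjusted p = 0.00263) and -0.60 ± 0.15 in Sox4 cells (limma, adjusted p = 0.00971).

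Of 13 relatives of the 8 genes (other IRF, SPI, GFI, KLF, ZEB and NR4A genes), 10 were tested, and 4 rose and 2 fell in K/L cells and likewise 4 and 2 in Sox4 cells. Their median change was 0.36 in K/L and 0.26 in Sox4 cells. Irf2, the gene of an antagonist of interferon signalling, averaged 9.06 ± 0.14 in K/L, 8.32 ± 0.19 in Sox4 and 7.05 ± 0.57 in wild type cells. It rose by 2.00 ± 0.24 in K/L cells (limma, adjusted p = 9.67e-05) and 1.27 ± 0.24 in Sox4 cells (limma, adjusted p = 0.00177). Between the leukaemias 1 relative, Irf2, was higher and 1, Klf2, lower in K/L cells.

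Among 20 partner and opposing regulators, 17 were tested, and 8 rose and 5 fell in K/L cells, where 9 rose and 4 fell in Sox4 cells. Cebpa, the gene mutated in K/L mice, rose by 0.97 ± 0.13 in K/L cells (limma, adjusted p = 0.000168) and 0.99 ± 0.13 in Sox4 cells (limma, adjusted p = 0.000155). Nab2, the gene of a corepressor of EGR factors and dim on all wild type arrays, rose by 1.23 ± 0.11 in K/L cells (limma, adjusted p = 1.32e-05) and 0.77 ± 0.11 in Sox4 cells (limma, adjusted p = 0.000282). Nfil3, the gene of a basic leucine zipper factor of natural killer and dendritic cells, changed by -1.20 ± 0.14 in K/L cells (limma, adjusted p = 8.77e-05) and -0.11 ± 0.14 in Sox4 cells (limma, adjusted p = 0.549). In K/L minus Sox4 3 regulators were higher and 3 lower, and without wild type array 3 the counts were 4 and 6.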

How the data were processed

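Total RNA of 9 sorted samples (3 K/L, 3 Sox4, 3 wild type) was hybridised to Affymetrix mouse arrays from 5 ug per sample, per the labels. The values are intensity per probe set as deposited by the authors on a linear scale, with RMA named per the submitters' processing notes and its version not given in the sources used here. The lowest value, 8, fills 4.86 to 5.57 percent of an array. Values were taken to log2 without further normalization. Of 45101 probe sets, 34958 had 1 symbol, 932 several and 9211 none, and only those with 1 were used. A gene was tested when its probe set exceeded the array's 40th percentile on at least 3 arrays. Groups were compared in limma 3.58.1 (R 4.3.3) with 1 fit of all 9 arrays and Benjamini-Hochberg adjustment over 12826 genes, and the method was tested on simulated data. Intervals are 95% intervals of that fit. No 2 arrays held identical values. All 8 given genes are named, with the 2 closest in pattern to Irf8 and to Klf4. Other named genes were drawn from the lists of relatives, partners, targets and markers. Eligible were up to 4 genes per list past the threshold with the smallest p per comparison, and genes that complete a count of 5 or fewer. Defining markers and sort gate genes were eligible too, and not every eligible gene is named. The 8 genes and the lists were chosen with earlier results of these data known. In all, 19 alternatives were tried.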

Additional observations from a re-analysis of the deposited data

Results flagged for a closer look

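For 4 genes the 2 leukaemias' changes from the same wild type arrays differed from each other in limma, as tested by K/L minus Sox4. For Irf8 that difference was -2.55 ± 0.41, from a K/L change of 1.49 and a Sox4 change of 4.03. For Klf4 it was -2.91 ± 0.30, from 0.57 in K/L and 3.48 in Sox4 cells. For Zeb2 it was -0.63 ± 0.14, from -0.50 in K/L and 0.13 in Sox4 cells at its probe set of highest mean. For Irf5 it was 0.46 ± 0.13, from 0.46 in K/L and 0.00 in Sox4 cells.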

How the results depend on the processing

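Under 19 alternatives the number of tested genes past the threshold stayed within 1.5 times of its value, at 5595 to 6862 for K/L versus wild type, 5224 to 6595 for Sox4 versus wild type and 2786 to 5104 for K/L versus Sox4. Of the differences of the 6 tested genes under these alternatives, 328 kept direction and call, 4 lost the call, 1 gained it and 9 changed sign. The 9 were all of differences that did not pass. Spi1 K/L minus wild type was 0.0047 without wild type replicate 2 (leave-one-out range -0.22 to 0.0047), and Spi1 Sox4 minus wild type was 0.059 without it (-0.14 to 0.059). Spi1 K/L minus Sox4 was 0.026 with arrays centred on their median and 0.038 without K/L replicate 1 (-0.17 to 0.038). Irf5 Sox4 minus wild type was -0.11 without wild type replicate 1, -0.016 without Sox4 replicate 2 and -0.028 without Sox4 replicate 3 (-0.11 to 0.093). Zeb2 Sox4 minus wild type was -0.0093 without wild type replicate 3 (-0.0093 to 0.27) and -0.11 when its probe sets were averaged. The cause was not tested. Same-numbered samples correlated at -0.02 to 0.08 in their deviations from group means over 9 pairs, 0 of them above 0.1, and 3 of 9 samples correlated best with their own number. The numbers therefore do not pair the samples, and with the replicate block 6369, 5999 and 3503 genes passed for K/L versus wild type, Sox4 versus wild type and K/L versus Sox4. Signal limits Irf4 and Nr4a1, which were too dim to test. It also limits the changes from wild type of Klf4, Ctss, Egr2, Nab2, Meis1 and Gzmb, which were dim on all 3 wild type arrays. The K/L values of Tcf4, Mmp8 and Ltf lay in or near the dim range, as did the wild type values of Ltf.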
